A study of Mus musculus with 2 samples.

Results

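The region described here is the 20 Mb of mouse chromosome 14 that lie proximal of *Gjb6*, the gene disrupted in Cx30 KO mice. Its members were the array probes whose lower coordinate lies from position 37742226 up to 57742225 of the mm9 build, directly before the *Gjb6* probe. The array holds 648 such probes, which carry 495 gene or transcript names of 37008 on the whole array. 4 further gene names of the region were left out. At least 1 probe was well above background on at least 1 array for 225 of the 495 names, and the values below refer to these. The other 270 names were not well above background on either array and have no ratio here.

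The study treated WT and Cx30 KO mice with saline or MPTP, a toxin that damages dopaminergic terminals, and compared gene expression in the striatum on day 1. There are 2 single-colour arrays here, 1 for each genotype after MPTP, both on the same slide, and each carries the pooled RNA of 2 male mice. No array of saline-treated mice is among them, so a difference present before MPTP and a different response to it cannot be told apart. All mice of these pools were 8 weeks old and were given MPTP at 20 mg/kg in 4 injections, 2 h apart. The strain is labelled C57BL/6J for WT MPTP and Cx30-LacZ for Cx30 KO MPTP. According to the methods, the line was started by in vitro fertilisation of C57BL/6 eggs with mutant sperm, and the WT mice are non-mutant mice from the same breeding. The genotype at *Gjb6*, the strain background around it and the pool of mice therefore cannot be told apart. Since each genotype has 1 array, no test between the genotypes and no error between mice could be had, and every ratio compares these 2 pools. The error given for a signal is that of the scanner software for a spot.

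*Gjb6* encodes connexin 30 (Cx30), a gap junction subunit of astrocytes. In a line with a targeted allele, the chromosome stretch on either side of that allele is inherited with it, so that alleles of neighbouring genes can stay those of the strain in which the allele was made. The proximal side of *Gjb6* holds families of related genes in tandem, among them the segments of the T-cell receptor alpha and delta chains, olfactory receptors, secreted ribonucleases and granzymes, and between them many single genes that most cells express.

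The probes are 60-mers, and a ratio is measured through the sequence of 1 probe. The middle 30 bases of 60 (bases 16 to 45, 5′ to 3′, transcript strand, as given in the array files) are shown for probes on which the results turn: neighbouring genes with unlike ratios, different probes of the same gene, and the large differences of *Tgm1* and of *Gjb2*, the neighbour of *Gjb6*. Positions are those of the mm9 build. Whether a probe lies in a coding exon or a UTR was not determined here, because no annotation of this build was used.
Pnp, chr14:51571344-51571403, plus strand: ttgatgaagtcactagtctctgttcttaga
Pnp2, chr14:51584365-51584424, plus strand: ccctctttataagcacagacttttattaaa
Ang, chr14:51721338-51721397, plus strand: taagaatgagcaagtctcccttccaggtca
Rnase4, chr14:51725036-51725095, plus strand: tatatccaatataacccatggtgttaagcg
Slc7a8, chr14:55341137-55341196, minus strand: ttttaatgtatggcggtttgggggcagagc
Slc7a8, chr14:55400157-55400215, minus strand: tttttcgctttgggtggtcggaaccctacg
Mhrt, chr14:55593124-55593183, plus strand: tgaaaagtgttgccaaggaaacagaggcaa
Tgm1, chr14:56319032-56319091, minus strand: ggagaacatacctatggcatatcgaggtgg
Khnyn, chr14:56514760-56514819, plus strand: ccttttcagcaaccttcgaaactcacgtta
Khnyn, chr14:56516676-56516735, plus strand: cgtggtttgcttcaagggcatagttcagaa
Gjb2, chr14:57717629-57717688, minus strand: ccactatgccttatgtgtatcctacaagat

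The labels and the tissue were checked first. The *Gjb6* probe next to the region was bright in WT (1788) and dim in Cx30 KO (111). All 9 striatal neuron markers were well above background on both arrays, led by *Penk* (163256 in WT and 169777 in Cx30 KO), and 0 of them met the criteria described next. Other cell types did differ between the pools. All 5 cortical neuron markers were higher in Cx30 KO, with summed signals of 171 in WT and 1383 in Cx30 KO. The brightest of them in Cx30 KO, *Neurod2*, had 49.0 and 594, and *Slc17a7*, *Fezf2* and *Neurod6* did not rise well above background in WT. Of 7 oligodendrocyte markers 5 met the criteria, and of 8 microglia markers 4, all of them lower in Cx30 KO, as were 3.39% of all genes. Of 6 astrocyte markers *Aqp4* met the criteria (889 and 438), while the median of the 6 log2 ratios was −0.03. Of 4 endothelial markers *Flt1* did (3414 and 1708), while *Cldn5* had a log2 ratio of 0.30, *Pecam1* 0.58 and *Cdh5* −0.04, and the median of the 4 was 0.13. The part of these differences in the ratios of the region was not tested, and in pooled tissue fewer cells of a type and less RNA per cell cannot be told apart.

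The study set limits on the ratio and on a Z-score, without naming the probes behind the Z-score. Here a gene met the criteria when its ratio of Cx30 KO over WT was at least 1.5 with a Z-score of at least 2.0, or at most 0.66 with a Z-score of at most −2.0. The Z-score was taken as SDs of the log2 ratio among the 1000 probes nearest in mean signal, a choice made here. With a Z-score over all probes, 36 genes of the region met the criteria, and 28 of these were among the 39 given next. In the region 39 of 225 genes (17.3%, 95% Clopper-Pearson interval from 12.6% to 22.9%, for counting error only) met the criteria, against 5.77% of 22012 genes on the whole array. Of these, 21 were lower in Cx30 KO (9.33% of the region against 3.39% of all genes) and 18 were higher (8.0% against 2.39%). For a gene seen on 1 array, the criteria were applied to its measured ratio and not to its limit, so that it passed through the array on which it was seen. Among the 182 genes well above background on both arrays, 21 met the criteria (11.5% against 4.11% of all such genes), 11 of them lower and 10 higher. The region was not shifted as a whole. Its median log2 ratio was 0.03, as it was for all genes (0.03), and 105 genes had negative and 120 positive log2 ratios. The ratios were more widely spread, with a mean absolute log2 ratio of 0.68 in the region and 0.35 over all genes, 0.49 and 0.29 with genes seen on 1 array at their limit, and 0.37 and 0.25 for genes seen on both arrays. A ratio of at least 2-fold in either direction was reached by 14 of the 182 genes seen on both arrays (7.69%), against 1.85% of all such genes.

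For comparison, the share of genes that met the criteria lay between 4.21% on chromosome 8 and 7.15% on chromosome 15 among the other chromosomes. It was 12.1% in the 20 Mb distal of *Gjb6*, where 20 genes were lower and 6 higher. On chromosome 14 proximal of the region it was 7.82% of 243 genes. For genes seen on both arrays, the share was 11.5% in the region, 9.79% in the 20 Mb distal of *Gjb6* and 4.13% proximal of the region. Genes of the region were dimmer than the rest, with a median WT signal of 290.2 against 414 for all genes. These shares describe the 2 arrays and were not tested against each other.

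**Figure D1:**
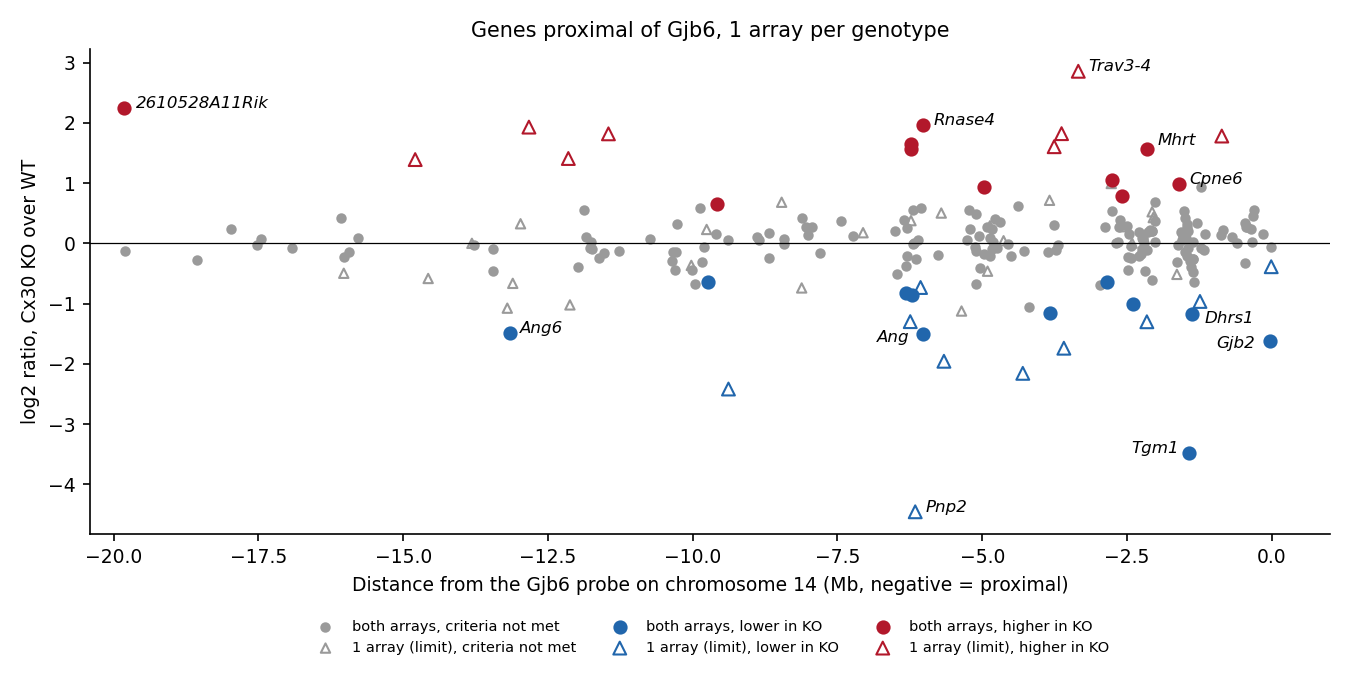
The log2 ratio of Cx30 KO over WT for the 225 genes of the region is plotted against the distance of their probe from the *Gjb6* probe in Mb. Filled circles are genes well above background on both arrays, and open triangles are genes seen on 1 array and drawn at their limit. Blue and red mark the 21 lower and 18 higher genes that met the criteria. Both colours are mixed up to 10 Mb from *Gjb6*, and beyond this 1 gene is lower and 5 are higher, most of these 5 seen on 1 array.

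Along the region, neither the share nor the direction changed steadily with distance. In the 2 Mb nearest to *Gjb6*, 5 genes were lower and 2 higher of 49. From 2 to 4 Mb, 5 were lower and 6 higher of 52. From 4 to 6 Mb 3 of 33 genes met the criteria, and from 6 to 8 Mb 9 of 27 (33.3%). Beyond 10 Mb only 43 genes were measured, and 6 of these met the criteria, 1 lower and 5 higher. Most of these 5 were seen in Cx30 KO only, and with genes seen on both arrays 2 of 31 met the criteria (6.45%). Of the 43 log2 ratios 28 were negative and 15 positive, with a median of −0.10, against 0.06 up to 10 Mb. Without the 2 Mb nearest to *Gjb6*, 32 of 176 genes met the criteria (18.2%). With genes seen on both arrays alone, 4 of 45 met the criteria up to 2 Mb (8.89%, against 4.11% of all such genes), 6 of 41 from 2 to 4 Mb, 1 of 26 from 4 to 6 Mb (3.85%), 6 of 22 from 6 to 8 Mb (27.3%) and 0 of 2 from 14 to 16 Mb.

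**Figure D2:**
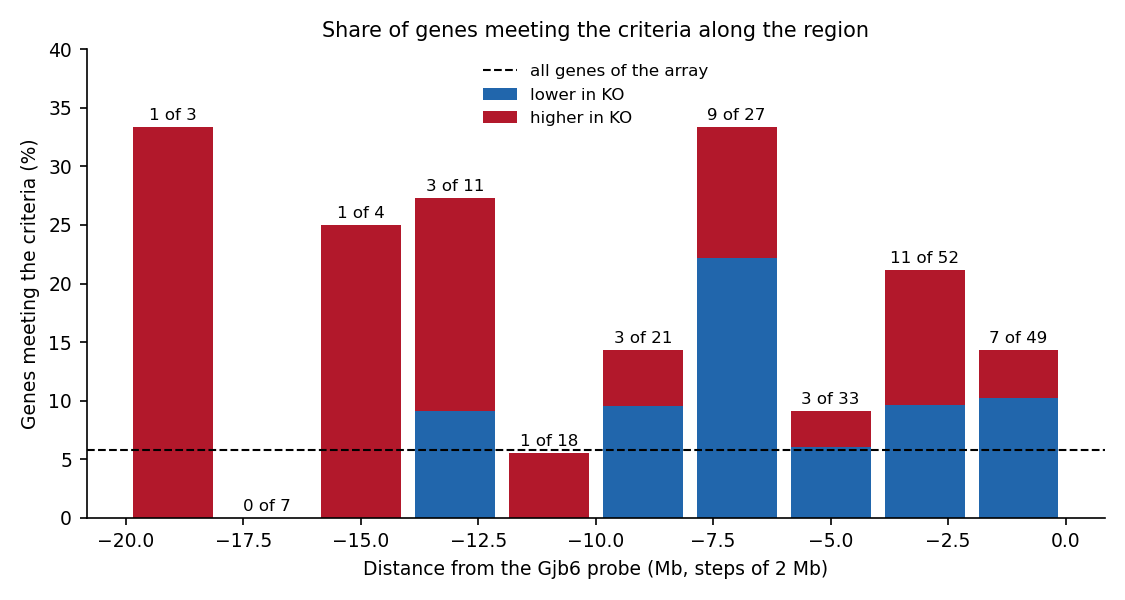
The share of genes that met the criteria is shown in steps of 2 Mb from the *Gjb6* probe, with lower genes in blue, higher genes in red and the count above each bar. The dashed line is the share over all genes (5.77%), and all steps lie above it except those with 0 of 7 and 1 of 18 genes.

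Directly beside *Gjb6*, *Gjb2*, which encodes connexin 26, another gap junction subunit of brain astrocytes and meninges, lies 0.02 Mb proximal. Its signal was 149 ± 15.5 in WT and 45.9 ± 5.91 in Cx30 KO, a 3.09-fold lower level (log2 ratio −1.63). After normexp background correction and quantile normalisation it was −0.93. The transcript *Gm4491*, between *Gjb2* and *Gjb6*, was seen in WT only (23.9) and was at least 1.31-fold lower, a limit short of the ratio criterion, and it no longer met the criteria after normexp (log2 ratio −0.39). *Zmym2*, a zinc finger protein gene 0.16 Mb from *Gjb6*, did not meet the criteria at any of its 3 probes, with log2 ratios of 0.16, 0.32 and 0.39.

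The largest difference among genes seen on both arrays was that of *Tgm1*, 1.42 Mb from *Gjb6*. *Tgm1* encodes transglutaminase 1, an enzyme that cross-links proteins and is known best from the outer layers of the epidermis. Its signal was 455 ± 45.7 in WT and 38.9 ± 5.29 in Cx30 KO, an 11.1-fold lower level (log2 ratio −3.48). After normexp background correction with quantile normalisation the log2 ratio of *Tgm1* was −2.36. The genes on both sides of *Tgm1* had small ratios. *Tinf2*, a subunit of the shelterin complex at telomeres, had log2 ratios of 0.20 and 0.21 at its 2 probes. *Gmpr2*, a guanosine monophosphate reductase, had −0.07 and −0.11, and *Rabggta*, which encodes a subunit of the transferase that prenylates Rab proteins, had −0.30. The next gene, *Dhrs1*, a short-chain dehydrogenase, was again lower, with signals of 3894 in WT and 1637 in Cx30 KO (2.26-fold). The step from 0 to 2 Mb also held *Cpne6*, which was higher in Cx30 KO, *Cbln3*, which was seen in WT only (at least 1.95-fold lower, with the criteria no longer met after normexp, where its log2 ratio was −0.58), and *Gzmb*, which was seen in Cx30 KO only (at least 3.44-fold higher).

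Of 7 detected genes in the group of glial genes, 3 met the criteria, all of them lower, where 17.3% of the region and 5.77% of all genes did: *Tgm1*, *Gjb2* and *Lgals3*. Without *Tgm1*, which is known best from the epidermis, these were 2 of 6. *Lgals3* encodes galectin 3, a lectin of activated microglia and macrophages, and its signal was 1895 in WT and 1160 in Cx30 KO (log2 ratio −0.64). A further *Lgals3* probe had −0.37 and did not meet the criteria. Beside this, 4 of 8 microglia markers met the criteria and were lower, with a median log2 ratio of −0.52 and summed signals of 91249 and 83919. The brightest of their probes, that of *Itgam*, had 60045 and 62438 and made up most of these sums. Of the 8 markers, 7 had negative log2 ratios. The part of the microglia markers in the *Lgals3* ratio was not tested. *Ndrg2*, an abundant gene of astrocytes, had 27511 in WT and 30779 in Cx30 KO (log2 ratio 0.23). *Bmp4*, a ligand of the bone morphogenetic protein family, had 0.07 and 0.02 at its 2 probes. *Fermt2*, an adaptor of integrins, had −0.24, and *Cmtm5*, which is rich in oligodendrocytes, had −0.46 while the oligodendrocyte markers had a median of −0.73. These 4 genes did not meet the criteria.

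**Figure D3:**
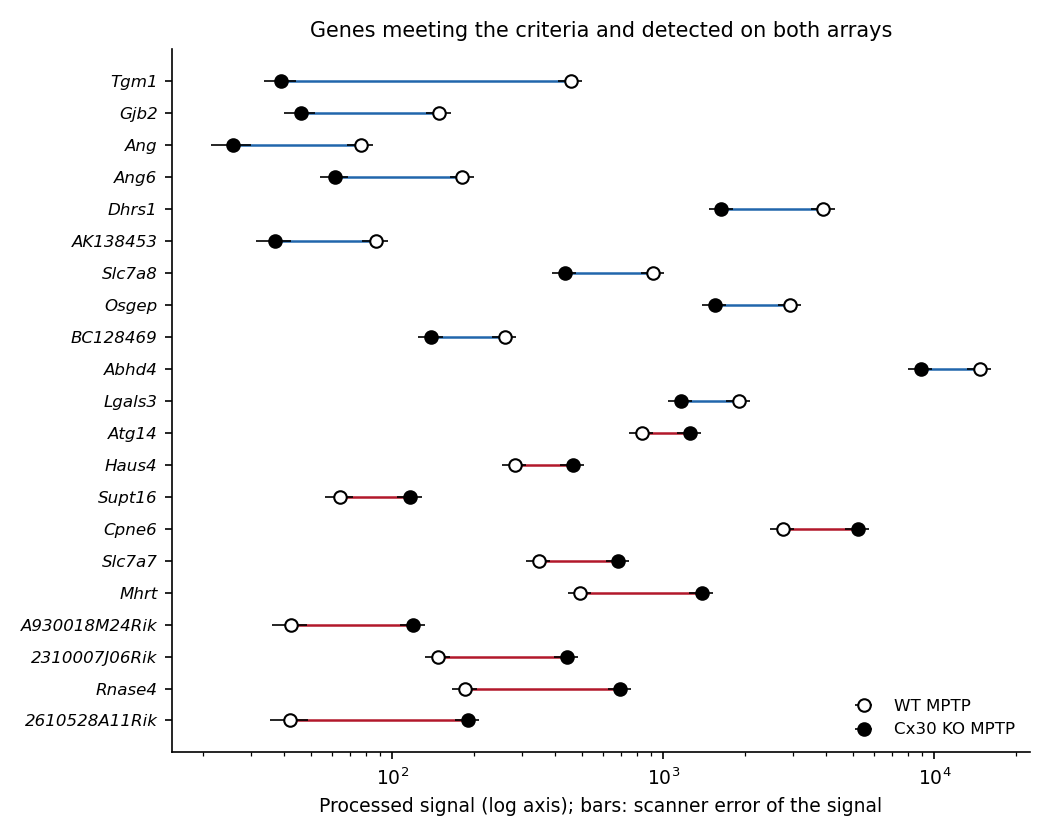
Processed signals on a log axis are shown for the 21 genes that met the criteria and were well above background on both arrays, with WT as open and Cx30 KO as filled circles and the scanner's error of the signal as bars. The genes are ordered by ratio, from *Tgm1* (455 to 38.9) to *2610528A11Rik* (42.0 to 190). The bars hold no variation between mice.

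Between 6 and 8 Mb, 9 of 27 genes met the criteria, in both directions (33.3%, against 5.77% of all genes). With genes seen on both arrays it was 6 of 22 (27.3%, against 4.11%). These 9 genes lay from 6.02 to 6.32 Mb, limits that are the positions of the outermost of them. Other genes between these limits did not meet the criteria, among them *Apex1*, *Pnp* and *Rnase10*. In order along the chromosome, starting farthest from *Gjb6*, the transcript *BC128469* was lower, *Gm26782* was seen in WT only (44.9, at least 2.46-fold lower, with the criteria no longer met after normexp at a log2 ratio of −0.58), *2310007J06Rik* and *A930018M24Rik* were higher, *Osgep* was lower, *Pnp2* and *Rnase12* were seen in WT only, *Ang* was lower and *Rnase4* was higher. *Osgep*, a subunit of the KEOPS complex that modifies transfer RNA, was 1.81-fold lower, with signals of 2936 and 1545. Both of its probes met the criteria, with log2 ratios of −0.85 and −0.95. Between *Osgep* and *Pnp2*, *Apex1*, a DNA repair endonuclease, had 0.46, 0.50 and 0.55 at its 3 probes and did not meet the criteria.

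The paralogs *Pnp* and *Pnp2* encode purine nucleoside phosphorylases, enzymes of purine salvage, and lie next to each other. The signals of *Pnp* were 1594 and 1531 in WT and Cx30 KO (log2 ratio 0.01). *Pnp2* had 401 ± 40.4 in WT, whereas its signal in Cx30 KO, 14.7 ± 4.76, did not stand well above background. This is an at least 22.0-fold lower level, the largest fold of the region with genes seen on 1 array at their limit. After normexp background correction with quantile normalisation the log2 ratio of *Pnp2* was −2.54.

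The ribonuclease A family, small secreted ribonucleases with roles in host defence and vessel growth, has 21 names in the region, of which 8 were detected. Among these 8, 3 were lower and 1 was higher by the criteria, where 17.3% of the region and 5.77% of all genes met them. *Ang*, which encodes angiogenin, had 76.5 in WT and 25.8 in Cx30 KO (log2 ratio −1.50, or −0.70 after normexp). *Rnase4*, which shares its promoters and first exons with *Ang*, had 186 in WT and 693 in Cx30 KO (log2 ratio 1.97). The 2 genes thus differed in opposite directions, each measured through 1 probe. *Ang6* was 2.81-fold lower, with signals of 182 and 61.5. *Rnase12* was seen in WT only, at least 1.66-fold lower, and after normexp (log2 ratio −0.47) it no longer met the criteria. *Ang3* (38.5 in WT and 15.2 in Cx30 KO) and *Ang4* (42.5 and 18.6) were seen in WT only too, at least 2.11-fold and at least 2.18-fold lower, without meeting the criteria. Signals of 106 and 105 at *Rnase10*, and 55.2 and 54.5 at *Ear6*, were close to each other. Members of this family are related in sequence, and whether a probe also binds a related transcript was not tested, so the values of single members are uncertain.

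The T-cell receptor alpha and delta segments have 81 names, of which 16 were detected, 10 of them on both arrays. They are related in sequence too, and the specificity of their probes was not tested. By the criteria 3 were lower and 3 were higher, where 17.3% of the region and 5.77% of all genes met them, and of these 6 all but *AK138453* were seen on 1 array only. *Trav3-4* was seen in Cx30 KO only, where it had 136 against 5.27 in WT (at least 7.25-fold higher, with a log2 ratio of 1.31 after normexp). *Trav7n-5* was seen in WT only, with 61.0 in WT and 3.98 in Cx30 KO (at least 3.34-fold lower). The T-cell receptor transcript *AK138453* was seen on both arrays and was 2.24-fold lower, with 86.9 and 37.0 (log2 ratio −1.16). After normexp it had −0.52 and no longer met the criteria. Of 5 T-cell markers, *Cd3g* and *Cd8a* were not well above background on either array, and 0 met the criteria. *Cd3e* had 481 in WT and 483 in Cx30 KO, and the marker with the brightest probe, *Cd4*, had 6128 and 5692. Among granzymes and mast cell proteases, 3 of 16 names were detected. *Gzmb*, which encodes granzyme B, a protease of cytotoxic lymphocytes, had 9.52 in WT and 64.6 in Cx30 KO. Of 37 olfactory receptor names, 6 were detected and 0 met the criteria. Of 2 vomeronasal receptors, *Vmn2r89* was seen in WT only (70.9), at least 3.89-fold lower.

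Of 9 detected neuronal and synaptic genes, *Cpne6* was higher and *Cbln3*, seen in WT only, was lower, without meeting the criteria after normexp (17.3% of the region and 5.77% of all genes met the criteria). *Cpne6* encodes a calcium-dependent phospholipid-binding protein of excitatory neurons, and its signal was 2754 ± 275 in WT and 5216 ± 522 in Cx30 KO (1.99-fold). Beside this, the cortical neuron markers had a median log2 ratio of 3.22, or 2.5 with genes seen on 1 array at their limit, and the striatal neuron markers one of −0.16. The part of the cortical neuron markers in the *Cpne6* ratio was not tested. *Gmfb*, the glia maturation factor beta gene, had 7179 in WT and 5034 in Cx30 KO (−0.44) without meeting the criteria. *Jph4*, a junctophilin of neurons, had 0.02 at its brightest probe.

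The transport group holds solute carriers beside genes of vesicle and nuclear transport. Of its 9 detected genes, 1 was lower and 1 higher by the criteria (all genes: 5.77%). Both are solute carriers, and the lower one, *Slc7a8*, had probes in opposite directions. *Slc7a7*, which encodes a light chain of a cationic amino acid exchanger, had 347 in WT and 682 in Cx30 KO (2.06-fold higher). *Slc7a8*, which encodes a light chain of a neutral amino acid exchanger, had 916 and 433 at its brighter probe (2.01-fold lower). *Slc22a17*, of the organic ion transporter family, had 52037 and 52853 (log2 ratio 0.09). Among 16 detected metabolic enzymes, 3 were lower and 0 higher, a share close to the 17.3% of the region (all genes: 5.77%). Beside *Pnp2* and *Dhrs1* this was *Abhd4*, a lipase that acts on N-acylated phospholipids, with 14678 in WT and 8914 in Cx30 KO (1.57-fold). *Gch1*, the first enzyme in the synthesis of tetrahydrobiopterin, the cofactor of tyrosine hydroxylase, had 212 in WT and 127 in Cx30 KO (log2 ratio −0.67), but its Z-score of −1.84 did not reach the limit.

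Of 10 detected genes of the proteasome, ubiquitin and NEDD8 group, 0 met the criteria, where 17.3% of the region and 5.77% of all genes did. Their log2 ratios lay between −0.31 and 0.54. The same shares stand beside the counts of the groups that follow, which are small and were not tested. *Psmb5*, a catalytic subunit of the proteasome, had 0.30, and *Psme1*, an activator subunit, had 0.14. Of 14 detected chromatin and transcription factor genes, 0 met the criteria at their brightest probe, though a dimmer probe of *Ttc5* did (log2 ratio −0.96). *Chd8*, a chromatin remodeller, had 0.28 at its brightest probe. Of 12 detected genes of RNA processing, *Osgep* alone met them. Of 8 detected genes of DNA repair, telomeres and cell division, *Haus4*, a subunit of the augmin complex of the spindle, was 1.72-fold higher, with signals of 283 and 464. Of 4 detected genes of innate immunity and cell death, 0 met the criteria. *Ripk3*, a kinase of necroptosis, had 48.0 in WT and 29.4 in Cx30 KO (log2 ratio −0.64). Outside these groups, *Supt16*, a subunit of the histone chaperone FACT, was 1.91-fold higher at low signals (64.1 and 117). After normexp its log2 ratio was 0.51 in place of 0.93 and the criteria were no longer met. *Atg14*, a subunit of the lipid kinase complex that starts autophagy, was 1.58-fold higher (831 and 1250.2). The highest ratio among genes seen on both arrays was at the far end of the region, 19.8 Mb from *Gjb6*, where *2610528A11Rik* had 42.0 in WT and 190 in Cx30 KO (4.75-fold, log2 ratio 2.25, or 1.18 after normexp). In all, 99 detected genes belonged to none of the groups, and 14 of these met the criteria (region: 17.3%, all genes: 5.77%).

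The cardiac myosin genes and the non-coding RNA between them differed from each other. *Mhrt*, a long non-coding RNA from the *Myh6* and *Myh7* locus that runs antisense to *Myh7*, had 493 ± 49.5 in WT and 1383 ± 138 in Cx30 KO (2.95-fold higher). *Myh7*, whose probe lies on the opposite strand, had 1799 and 1590 (log2 ratio −0.11). *Myh6* was seen in WT only (45.0), at least 2.47-fold lower.

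Different probes of the same gene did not always give the same ratio. In the region 55 genes had 2 or more probes well above background on both arrays, and the SD of the log2 ratio between probes of a gene was 0.35, against 0.26 for 7145 such genes of the whole array and 0.35 for 59 genes in the 20 Mb distal of *Gjb6*. Single spots of the same probe had an SD of 0.07. The median range between the probes of a gene was 0.23 in the region and 0.23 over all genes, while the range exceeded 1 on the log2 scale in 5 of 55 genes (9.09%), against 3.09% of all genes. Probes beyond the ratio limits in opposite directions occurred in 2 of the 55 genes, against 0.252% of all genes. These were *Slc7a8* and *Wdhd1*. The probe of *Slc7a8* at 55341137 was lower in Cx30 KO (log2 ratio −1.01), whereas the probe at 55400157 was higher (0.79, with signals of 35.6 and 58.7). The probe at 55341137 met the criteria (Z-score −3.16), and the dimmer probe at 55400157 did not (Z-score 1.31). The mean of both *Slc7a8* probes was −0.11, so that its direction rests on the probe chosen. *Wdhd1*, a DNA replication factor, had 0.59 at 47864781 and −1.03 at 47865052, and neither of these probes met the criteria. *Ttc5*, a cofactor of transcription, had 0.39 at one probe and −0.96 and −1.03 at the others, which are annotated to another transcript of the gene. *Acin1*, a protein of RNA splicing complexes, had −0.44, 0.53 and −0.56. *Khnyn*, an antiviral RNA-binding protein gene, had 43.8 in WT and 79.8 in Cx30 KO at the probe at 56514760 (0.94), and its probe at 56516676 was seen in WT only, with 32.3 (at least 1.77-fold lower). Neither *Khnyn* probe met the criteria.

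**Figure D4:**
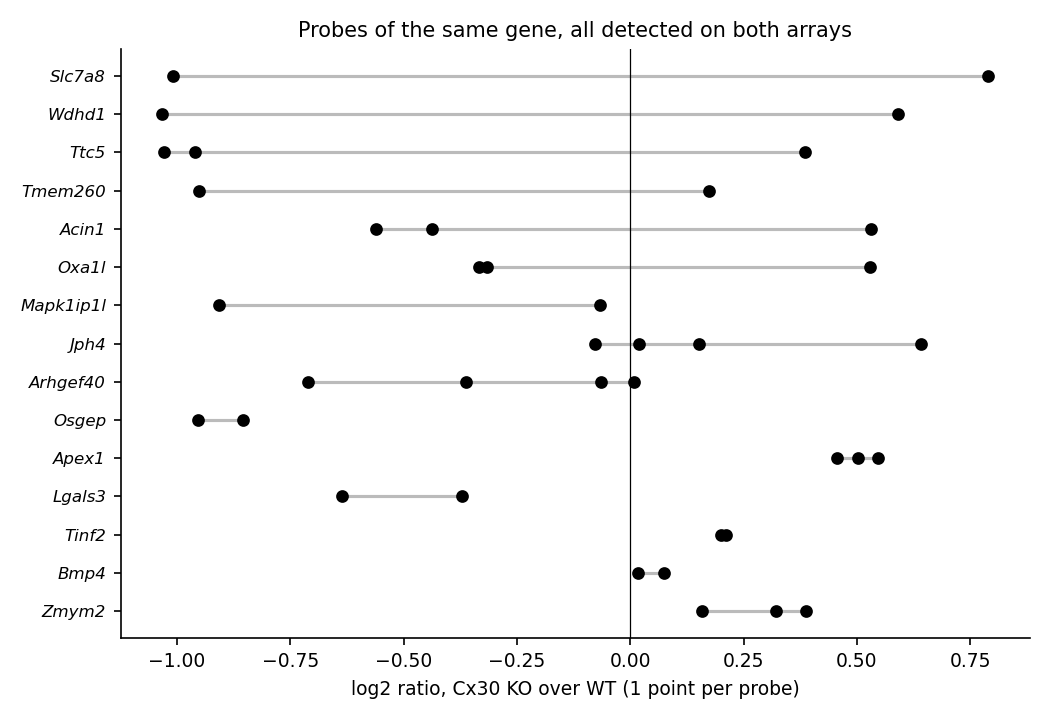
The log2 ratio of Cx30 KO over WT is shown for each probe of 15 genes, with 1 point for each probe well above background on both arrays and a grey line for the range. The upper 9 genes have the widest ranges of the region, from *Slc7a8* (−1.01 and 0.79) down, and the lower 6, chosen after their values were seen, have narrower ranges, such as *Osgep* (−0.95 and −0.85).

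The remaining genes that met the criteria were seen on 1 array. In WT only, the thymus transcript *AK038213* had 97.6 (at least 5.35-fold lower) and the T-cell receptor segment *ENSMUST00000103584* had 81.4 (at least 4.46-fold lower). In Cx30 KO only, *A530076I17Rik* had 66.3 (at least 3.53-fold higher) and *Gm16976* had 49.9 (at least 2.65-fold higher). The predicted transcripts *ENSMUST00000178002* and *ENSMUST00000166883* were at least 3.81-fold and at least 2.62-fold higher, and the latter no longer met the criteria after normexp. 2 further T-cell receptor segments, *ENSMUST00000181210* and *ENSMUST00000103634*, were at least 3.53-fold and 3.04-fold higher. Of the 18 genes that met the criteria on 1 array, *Pnp2* and *Trav3-4* alone had signals above 100. The lowest signals that passed as well above background were 19.8 on the WT array and 17.4 on the other, and since the dim side lay at or under these, the sizes of their ratios are bounds and not measurements. These bounds hold for the scaling used here. After normexp and quantile normalisation the log2 ratios of the genes seen in WT only lay between −2.54 (*Pnp2*) and −0.39 (*Gm4491*), with −0.92 for *AK038213*, −0.90 for *Trav7n-5* and −1.06 for *Vmn2r89*. Those of the genes seen in Cx30 KO only lay between 0.45 (*ENSMUST00000166883*) and 1.31 (*Trav3-4*), with 0.89 for both *Gzmb* and *A530076I17Rik*.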

How the data were processed

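Gene expression was measured in 2 pools of striatal RNA, WT MPTP and Cx30 KO MPTP, on Agilent arrays labelled with Cy3. The intensity values deposited by the authors are processed signals from Agilent Feature Extraction (version 9.5.1.1 per the labels and 10.7.1.1 per the file headers), background-subtracted and detrended within each array. Probe positions are on mm9. A second table from the authors holds normalised intensities of the same arrays, and 99.99% of them differ by under 1% from a quantile normalisation of the signals; it was used as an alternative.

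Each array has 62976 spots and 56605 probes without controls. Control and outlier spots were left out, log2 signals were averaged over the spots of each probe, and each array's 75th percentile (401.2 in WT and 381.8 in Cx30 KO) was subtracted. To count as well above background, a probe needed this mark on 50% or more of its spots (32019 probes in WT and 32961 in Cx30 KO). No probe of the region (0) was saturated. A gene was represented by the brightest probe well above background on at least 1 array. A gene seen on 1 array is given as "at least" a fold, against the higher of its own signal and the lowest signal well above background on the other array. Older symbols were updated for 13 probes of the region with a RefSeq table (GRCm38.p6) where the chromosome was the same, and 299 of the 495 names are in that table.

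Genes are named when they are *Gjb6*, *Gjb2*, *Gch1*, *Ndrg2*, *Lgals3*, *Bmp4* or *Tgm1*, among the 12 largest falls or rises that met the criteria on both arrays, among up to 8 each way seen on 1 array, within 2 Mb of *Gjb6* and past the criteria, have probes in opposite directions, or belong to a group described. Other genes were chosen after their values were seen. A marker of 1 cell type is not reported here and was left out of its list. The members, groups and rules were chosen with earlier results of these data known. Alternatives were normexp (offset of 50) and then quantile normalisation (limma 3.58.1, R 4.3.3), quantile normalisation alone, the authors' own normalised intensities, median scaling, dim probes kept, both arrays only, the mean of probes, other Z-scores and other limits. The calls were tested on simulated data. The simulation held only probes seen on both arrays, with the same noise at all signals, so it does not cover genes seen on 1 array. With 1 array for each genotype, their number limits the precision, and no replicate could be left out.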

Additional observations from a re-analysis of the deposited data

How the results depend on the processing

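No paired analysis was possible because there is 1 array for each genotype, and for the same reason no replicate was left out. Log2 ratios are compared for 64 genes of the text, and 0 of those that met the criteria changed sign. With the mean of probes the sign turned for *Ttc5* (−0.53), *Wdhd1* (−0.07) and *Khnyn* (−0.07), and under other scalings for *Ear6*, *Jph4* and *Pnp*, whose ratios lay near 0. The share of genes that met the criteria was 11.5% with both arrays only, 8.28% with no filter on dim probes and 29.8% with no Z-score, against 4.11%, 3.98% and 13.4% of all genes under the same settings. The counts were 11 lower and 10 higher with both arrays only, and 34 lower and 33 higher with no Z-score. The mean absolute log2 ratio was 0.37 with both arrays only, 0.53 with no filter and 0.31 after normexp and quantile normalisation (0.19 for all genes). After normexp 32 genes met the criteria, all of them among the 39, with 16 lower and 16 higher (14.2%, against 4.45% of all genes); the 7 others were *Supt16*, *AK138453*, *Rnase12*, *Cbln3*, *Gm26782*, *Gm4491* and *ENSMUST00000166883*. With no filter the median was −0.10 (−0.07 for all genes). With both arrays only, the share was 0% from 10 to 12 Mb and 0% from 14 to 16 Mb, and the SD between probes was 0.35 in place of 0.46 on 1 or both arrays. With a Z-score over all probes 36 genes met the criteria, 28 of them among the 39. Fewer genes enter with both arrays only, and 270 dim names are added with no filter; the cause of the other shifts was not tested. Of 320 values, 284 moved by less than the SD between probes over all genes (0.26) and 36 by more. Of these 36, 31 were values after normexp and quantile normalisation; the others were means of probes, of *Slc7a8*, *Wdhd1*, *Ttc5*, *Khnyn* and *Acin1*.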
